A study of Mus musculus with 15 samples.

Results

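The RNA sequencing data were examined for 10 genes of the Lin28-let-7 axis in the foetal mouse cortex with and without Phf6. These were Lin28a and Lin28b and 8 foetal genes that let-7 microRNAs are known to control, namely Hmga1, Hmga2, Igf2bp1, Igf2bp2, Igf2bp3, Trim71, Arid3b and Mycn. They are 10 of the 26150 genes with an Entrez identifier in the count table, and all 10 were found there. Lin28b was chosen by its higher level in Phf6-null cortex in these same libraries, so its cortex difference is described with no test. The other 9 were chosen on what is known of the genes, with earlier results of these data in view.

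The data comprised 15 libraries from C57BL/6 mice, each giving a count of RNA sequencing reads per gene. The E15.5 cerebral cortices were 3 Phf6+/Y controls and 5 Phf6-/Y samples, which carry a germline deletion of Phf6, and they came from litters 1 to 3. The E16.5 cortical neurons, cultured overnight, came from litters 4 to 7. Their 3 controls were Phf6+/Y;Nes-cre Tg/+, and the deleted genotype, Phf6 lox/Y;Nes-cre Tg/+, had 4 cultures. Nes-cre drives recombination in neural progenitors and the cells they give rise to, and control and Phf6-deleted cultures both carried it, whereas no cortex did. Litter 7 held 1 deleted culture and no control, so it does not inform the within-litter comparison of genotypes. The cortex is a mixed tissue that includes blood vessels and blood cells, whose markers were far lower in the cultures. Tissue, embryonic day, culture and the transgene therefore change together between cortex and neurons and cannot be told apart.

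Library totals ranged from 16858007 to 31157700 reads, with a median of 24218468. Levels are given in CPM, counts relative to library size, scaled over all libraries by TMM normalisation, and 1 read was worth between 0.031 and 0.064 CPM. Phf6 itself ranged from 149 to 191 CPM in the control cortices, and from 42.4 to 55.2 CPM after germline deletion. In the cultures the range was 228 to 259 CPM in controls and 59.9 to 85.8 CPM after deletion. The neuron markers (10 genes, such as Tubb3 and Dcx) summed to between 5648 and 7825 CPM in the cortices and to between 10670 and 11800 CPM in the cultures. Not all of the 10 followed the sum. In the test between control tissues used below, 7 were called higher in the cultures and 2, Tbr1 and Bcl11b, lower. Tubb3 was not called. One cortex stood apart by its markers. In Phf6-/Y replicate 1, of litter 3, the 7 diencephalon markers summed to 433 CPM, against 31.2 to 55.9 CPM in the other 7 cortices. The cortex genotype differences of the members are given below with and without it.

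Let-7 microRNAs are short RNAs that build up as tissues mature and repress messenger RNAs carrying matches to their seed in the 3′ untranslated region. LIN28A and LIN28B are RNA-binding proteins of immature cells that bind let-7 precursors at GGAG motifs in the terminal loop. They block maturation of the precursors, and the Lin28 messenger RNAs are themselves let-7 targets, so each side of the axis represses the other. In the foetal brain the axis is known for marking neural progenitors, in which Lin28 genes and let-7 targets such as Hmga2 are high early and decline as development proceeds.

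The mature let-7 sequences are shown because a shared seed is what joins the members. RefSeq lists 9 distinct mature 5p sequences of the mouse family, and all 9 have the seed GAGGUAG at bases 2 to 8. It stands in capitals in the 4 printed here 5′ to 3′. Those of let-7b and let-7c belong to the hairpins with the most reads in these libraries.
let-7a-5p: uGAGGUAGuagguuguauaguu
let-7b-5p: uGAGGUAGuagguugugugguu
let-7c-5p: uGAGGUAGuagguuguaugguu
miR-98-5p: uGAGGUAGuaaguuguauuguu
Of the 12 hairpins in RefSeq, 9 hold GGAG between the 2 mature arms. The hairpins of Mirlet7b and Mirlet7c-2 and that of Mir98 do not. Mirlet7c-2 (GRCm38.p6, chr15:85706603-85706697, plus strand) and Mirlet7b (chr15:85707319-85707403, plus strand) lie side by side inside the long non-coding gene Lncppara. They are printed next to Mirlet7g (chr9:106178840-106178927, plus strand), a hairpin with the motif, where GGAG is in capitals.
Mirlet7b: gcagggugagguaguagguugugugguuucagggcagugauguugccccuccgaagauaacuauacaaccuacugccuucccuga
Mirlet7c-2: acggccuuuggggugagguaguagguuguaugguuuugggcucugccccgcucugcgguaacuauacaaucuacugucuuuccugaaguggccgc
Mirlet7g: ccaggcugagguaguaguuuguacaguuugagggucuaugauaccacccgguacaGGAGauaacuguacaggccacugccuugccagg

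The 3′ untranslated regions of all 10 members held a match to that seed. The longest annotated 3′ untranslated region of each gene (GENCODE M21, GRCm38) was searched on the transcribed strand for CTACCTCA (8mer), for CTACCTC without the final A (7mer-m8), and for TACCTCA without the leading C (7mer-A1), so that no match counts under more than 1 name. Over 20993 genes with such a region, 3.06% held an 8mer, 9.02% an 8mer or 7mer-m8, and 14.9% any of the 3. Hmga2 held 7 matches, Trim71 6, Lin28b, Igf2bp1 and Arid3b 5 each, Lin28a, Igf2bp2 and Mycn 2 each, and Hmga1 and Igf2bp3 1 each. Lin28b, Hmga2, Igf2bp1 and Trim71 each held 4 of the 8mer or 7mer-m8 kind, a number that 12 genes (0.0572%) reached, these 4 included. Mycn held only 7mer-A1 matches. Among regions of like length, an 8mer or 7mer-m8 was held by 24.2% for Lin28b, 33.6% for Igf2bp1 and 29.4% for Trim71. Of the matches of Trim71, 3 lie beyond the end of its RefSeq gene, at base 114511268. A match is a description of the sequence and not a measured site. The sites below show the strongest match in members with many and in members with few, each with the match in capitals at its 3′ end and on the strand of the gene (all minus but Hmga1, which is plus).
Lin28b 8mer, chr10:45381022-45381051: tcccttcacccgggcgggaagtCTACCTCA
Hmga2 8mer, chr10:120364224-120364253: agggggcgccgacattcaatttCTACCTCA
Igf2bp1 8mer, chr11:95961778-95961807: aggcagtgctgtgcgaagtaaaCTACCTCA
Trim71 8mer, chr9:114512472-114512501: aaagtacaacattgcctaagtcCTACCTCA
Igf2bp3 8mer, chr6:49086787-49086816: ttaaacgtgcatttttactcaaCTACCTCA
Hmga1 7mer-m8, chr17:27563270-27563299: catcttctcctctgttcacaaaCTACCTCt
Mycn 7mer-A1, chr12:12936499-12936528: ttcacacctaagtactgtaagaaTACCTCA

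**Figure D1:**
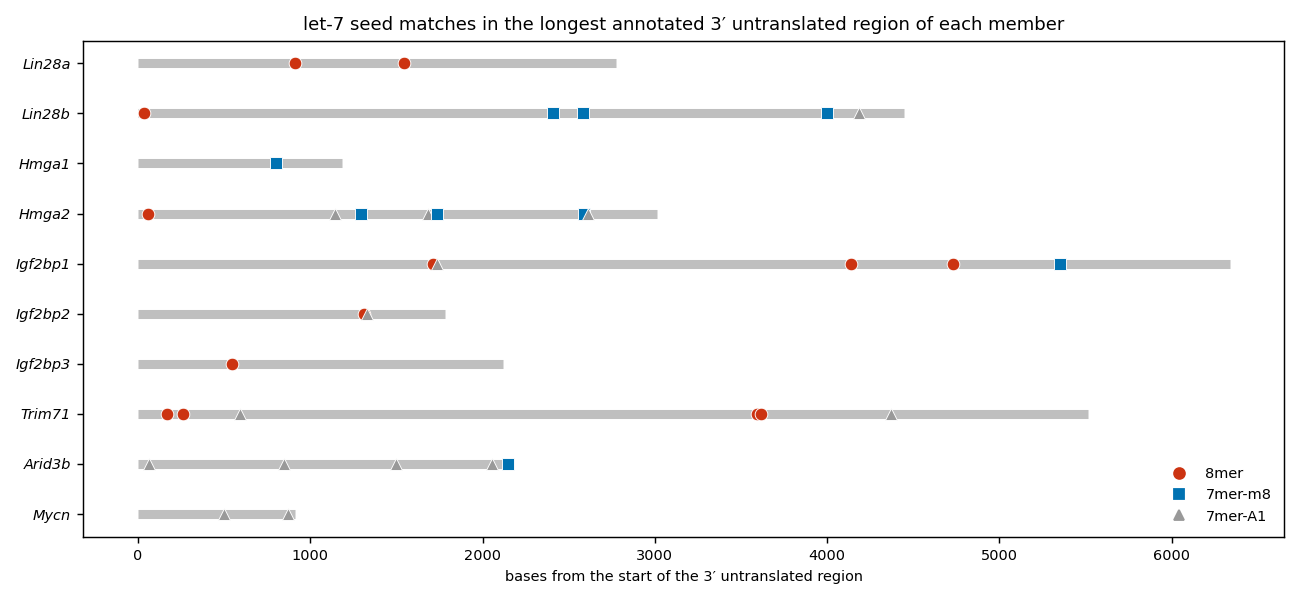
Each bar is the longest annotated 3′ untranslated region of a member, drawn to scale in bases from its start, and each symbol is a let-7 seed match (circle 8mer, square 7mer-m8, triangle 7mer-A1). Matches spread along the long regions of Igf2bp1 (6337 bases) and Trim71 (5512 bases), and Hmga2 has 7 in 3014 bases.

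Lin28b (GRCm38 chr10:45376617-45486314) was higher in the Phf6-/Y cortices than in their littermate controls. The 3 controls were at 7.92, 4.87 and 4.35 CPM, and the 5 Phf6-/Y cortices at 17.0, 12.7, 7.68, 10.2 and 9.82 CPM. The groups overlapped slightly, since the control of litter 3 lay above the lowest Phf6-/Y cortex, of litter 2. Within litters, all 5 Phf6-/Y cortices lay above their control. The log2 ratio was 1.10 in litter 3, 1.38 and 0.66 in litter 2, and 1.22 and 1.17 in litter 1. The log2 fold change, fitted by edgeR within litters, was 1.11 (standard error, SE, 0.18), a level 2.17 times that of the controls, and it was 1.13 without Phf6-/Y replicate 1. This is the difference that chose the gene, so no test is given for it. Of the 14750 genes tested in the cortex, 0.386% were called at an FDR (Benjamini-Hochberg adjusted p) below 0.05.

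In the cultured neurons Lin28b was low, and no difference between genotypes was detectable. The control cultures held 0.99, 0.78 and 1.32 CPM, from 27, 17 and 30 reads. The deleted cultures held 1.33, 1.25, 0.51 and 1.11 CPM, from 27, 34, 8 and 23 reads, and the groups overlapped throughout. Within litters, 1 of 3 deleted cultures lay above its control and 2 lay below. The log2 fold change was -0.12 (SE 0.46, 95% interval -1.11 to 0.87, edgeR FDR = 0.961). The genotype difference in the neurons minus that in the cortex was -1.22 on the log2 scale (SE 0.35), again with no test because the cortex difference chose the gene.

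Between tissues Lin28b fell steeply. From control cortex to control neurons it fell by 2.47 on the log2 scale (SE 0.35, FDR = 1.36e-05 by edgeR over all 15 libraries), to 0.18 of the cortex level. The groups did not overlap, which held for 8897 of the 15001 genes tested in this comparison. Between the Phf6-deleted samples of both tissues the log2 difference was -3.41 (SE 0.30), given as a description. Without litter 3 the control value was -2.16.

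Lin28a (chr4:134003330-134019196), the paralogue best known from embryonic stem cells, was close to the detection limit. The control cortices had 3, 6 and 2 reads and the Phf6-/Y cortices 8, 13, 4, 3 and 1, which pooled to 0.13 CPM (95% Poisson interval 0.067 to 0.24) and 0.22 CPM (0.15 to 0.32). The control neurons had 0 reads in 3 libraries, which allows up to 0.042 CPM (3 reads over the group), and the deleted neurons had 1, 1, 5 and 0. The pooled control cortex value was 3.21 times that floor of 3 reads. This is not a lower bound, since it leaves out the counting error of the 11 cortex reads, whose interval begins at 0.067 CPM. These intervals cover counting error only. Lin28a did not pass the filter on low counts and was not tested in any main comparison. Thus 9 members were tested in the cortex and 8 in the neurons, where Trim71 was also left out. In the alternative fit with no filter, Lin28a was called between control tissues, on these few reads.

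**Figure D2:**
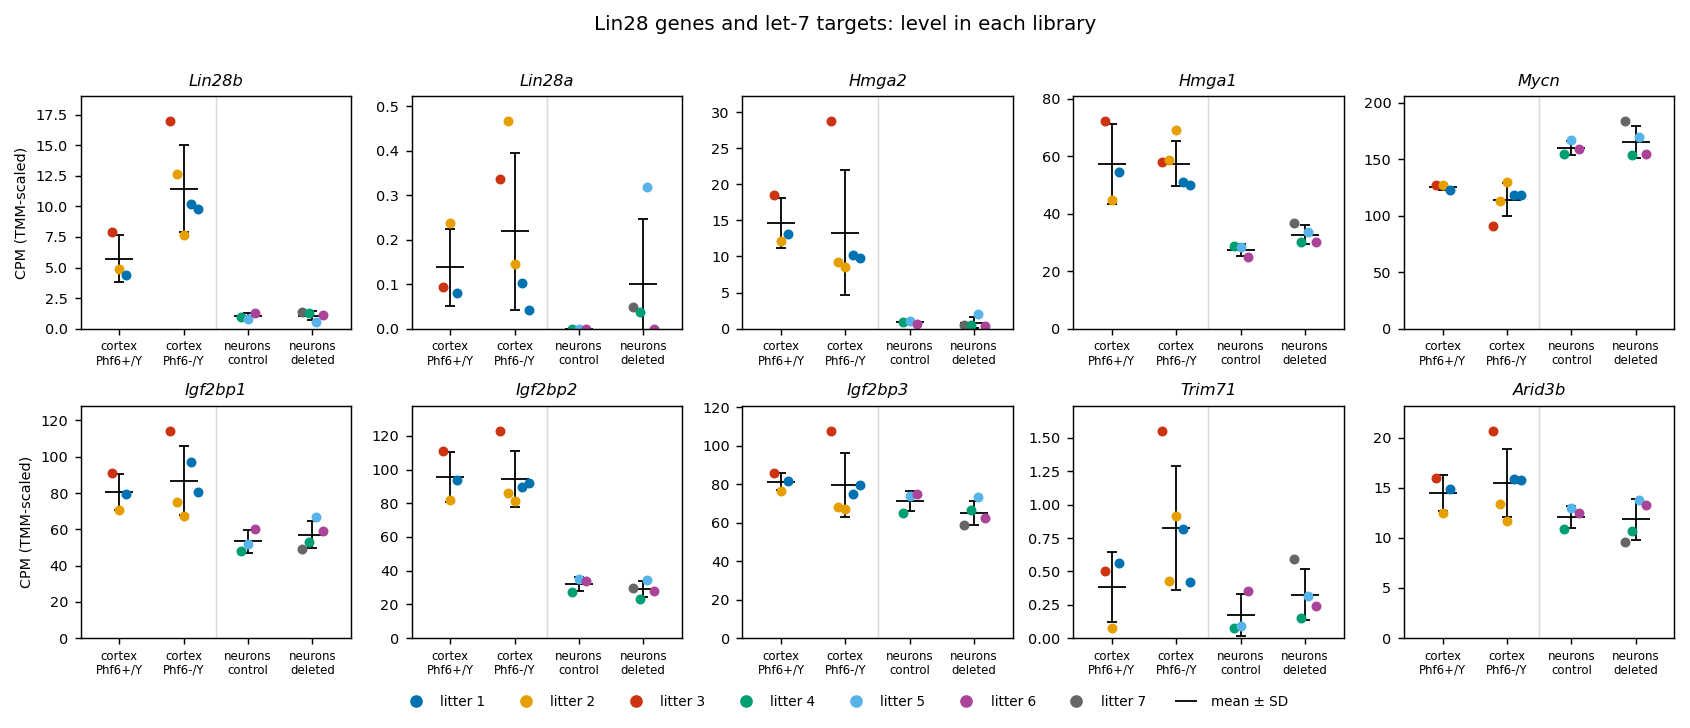
Each point is 1 library, coloured by litter, and the bars are the mean ± SD of each group (3, 5, 3 and 4 libraries from left to right), on linear CPM axes that start at 0. Lin28b is higher in the Phf6-/Y cortices, Lin28b and Hmga2 are near 1 CPM in the neurons, and the red point of Phf6-/Y replicate 1 tops 7 of the 10 panels among the cortices.

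None of the 8 other members tested in the cortex was called between genotypes at an FDR below 0.05 by edgeR, fitted within litters. At an unadjusted p below 0.05 there was 1 (Trim71, higher), where 5.69% of all tested genes were higher at that p. DESeq2 and limma-trend also called 0. The median log2 fold change of the 8 members was 0.036, against -0.0021 over all genes tested, with 5 values above 0 and 3 below. All 8 overlapped between the groups, where 5.02% of all tested genes did not.

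The high mobility group genes Hmga2 and Hmga1 encode architectural chromatin proteins, of which HMGA2 is known for its role in the self-renewal of foetal neural stem cells. Hmga2 (chr10:120361268-120476469) was at 18.6, 12.1 and 13.1 CPM in the control cortices and at 28.7, 9.28, 8.56, 10.1 and 9.82 CPM in the Phf6-/Y cortices. The 4 Phf6-/Y cortices of litters 1 and 2 lay below their controls, by log2 ratios of -0.50 to -0.36, and Phf6-/Y replicate 1, the library with the diencephalon markers, lay above its control by 0.63. The log2 fold change was -0.13 (SE 0.17, 95% interval -0.50 to 0.25, edgeR FDR = 0.859). Without Phf6-/Y replicate 1 it was -0.41 (edgeR FDR = 0.457, over alternatives 0.437 to 0.992), and without its control, replicate 1 of litter 3, it was -0.42. Without control replicate 2 or 3 it was 0.062 or 0.017. In litters 1 and 2 Lin28b lay above its control in each Phf6-/Y cortex, where Hmga2 lay below.

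Hmga1 (chr17:27556574-27563672) was at 72.2, 44.7 and 54.7 CPM in control and at 58.2, 58.7, 69.3, 51.1 and 49.9 CPM in Phf6-/Y cortices. The fitted log2 difference was 0.045 (SE 0.13, edgeR FDR = 0.948), and 0.19 without Phf6-/Y replicate 1. Reads of Hmga1 cannot be cleanly told from those of Hmga1b, a near-identical copy on chromosome 11 that had 38.8 to 59.1 CPM in the cortices. The 2 rows summed to 110 ± 19.5 CPM (SD, n = 3) in the controls, and to 107 ± 13.4 CPM (SD, n = 5) without Phf6.

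The Igf2bp genes encode RNA-binding proteins that stabilise foetal messenger RNAs. Igf2bp1 (chr11:95957163-96005944) was at 91.0, 70.9 and 79.5 CPM in the control cortices and at 114, 75.1, 67.3, 97.1 and 80.3 CPM in the Phf6-/Y cortices. The fitted log2 difference was 0.14 (SE 0.086, 95% interval -0.041 to 0.33, edgeR FDR = 0.598), and 4 of 5 Phf6-/Y cortices lay above their control. Igf2bp2 (chr16:22059009-22163299) differed by 0.027 (SE 0.066, edgeR FDR = 0.931) and Igf2bp3 (chr6:49085218-49215469) by -0.0087 (SE 0.086, edgeR FDR = 0.986). For all 3 genes Phf6-/Y replicate 1 was the highest of the 8 cortices, and without it the values were 0.082 for Igf2bp1, -0.010 for Igf2bp2 and -0.13 for Igf2bp3. The annotated span of Igf2bp3 overlaps that of Malsu1, and the strand setting of the counting is not given, so reads there may not be told apart.

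Mycn, Arid3b and Trim71 are regulators of proliferating cells. Mycn (chr12:12936093-12941836), a transcription factor of growing progenitors, was at 127, 127 and 123 CPM in the control cortices and at 90.8, 113, 130, 119 and 118 CPM in the Phf6-/Y cortices. It differed by -0.18 (SE 0.084, edgeR FDR = 0.485). The lowest library was Phf6-/Y replicate 1, at 90.8 CPM, and the value was -0.056 without it. Arid3b (chr9:57790353-57836847), which encodes a DNA-binding protein, differed by 0.13 (SE 0.12, edgeR FDR = 0.749). Phf6-/Y replicate 1 was again the highest of the 8 cortices, at 20.7 CPM, and without it the difference was 0.046.

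Trim71 (chr9:114511268-114564369), whose product is an RNA-binding ubiquitin ligase and the counterpart of the worm gene lin-41, had the largest fitted difference. It rested on few reads, with 16, 2 and 14 in the control cortices and 37, 12, 25, 24 and 10 in the Phf6-/Y cortices. These are 0.50, 0.079 and 0.56 CPM against 1.55, 0.43, 0.91, 0.82 and 0.42 CPM, and the groups overlapped. The log2 fold change was 1.29 (SE 0.58, edgeR FDR = 0.454), and it moved with single libraries. The control of litter 2, with 2 reads, gave the ratios of litter 2 their size of 2.44 and 3.53 on the log2 scale. Without that control the value was 0.81, without Phf6-/Y replicate 1 it was 1.13, and without the control of litter 1 it was 2.15.

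**Figure D3:**
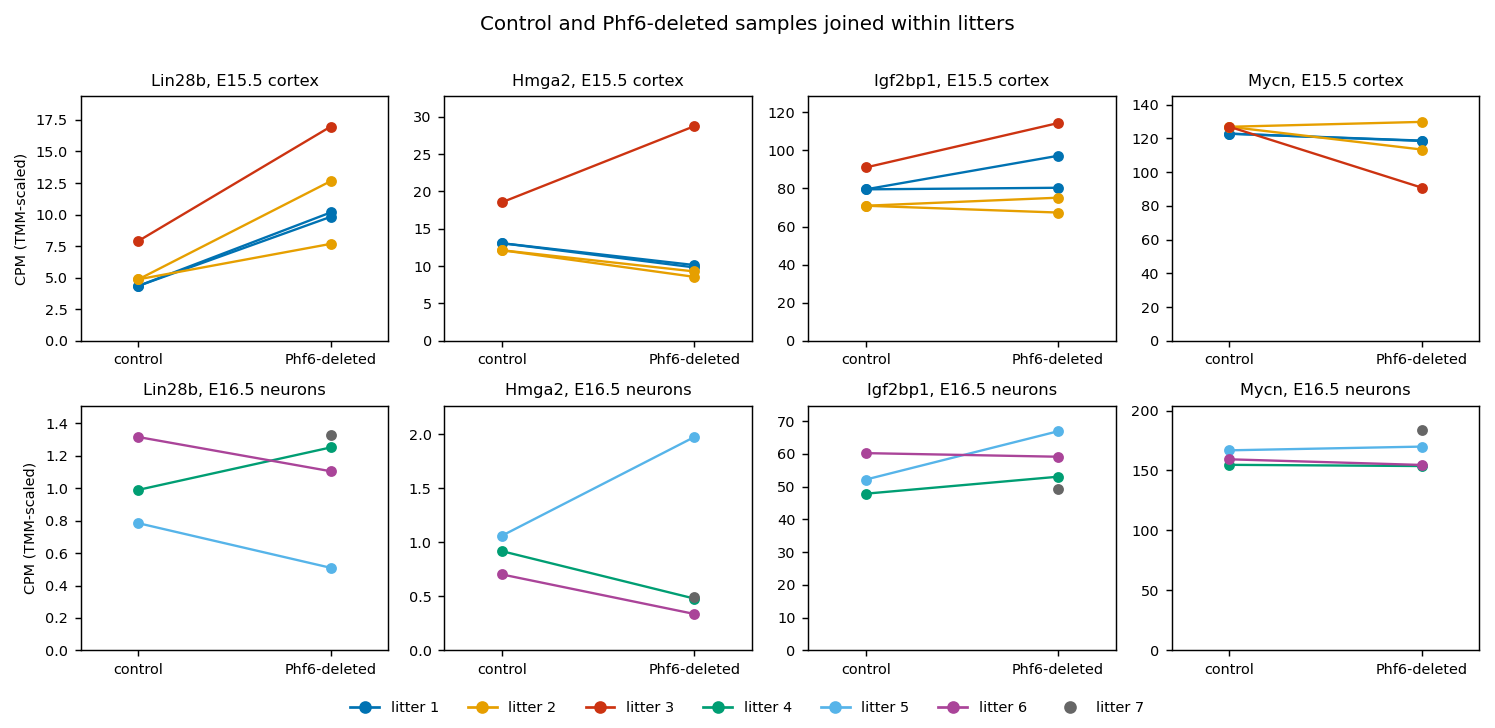
Lines join the control to each Phf6-deleted sample of the same litter (colour) for Lin28b, Hmga2, Igf2bp1 and Mycn, on linear CPM axes that start at 0, with the cortex above and the neurons below. The grey point is the litter 7 culture, which has no control. All 5 cortex lines of Lin28b go up, 4 of 5 of Hmga2 go down, and in the neurons the lines of Lin28b and Hmga2 go both ways.

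None of the 8 members tested in the neurons was called between genotypes either, against 0.273% of 13909 genes, and 0 had an unadjusted p below 0.05 from edgeR. DESeq2 and limma-trend also called 0. The median log2 fold change was -0.046, against 0.00097 over all genes tested, with 3 values above 0 and 5 below. Hmga1 was the 1 member whose groups did not overlap, at 28.7, 28.3 and 25.0 CPM in controls and 36.9, 30.0, 33.7 and 30.3 CPM in deleted cultures, where 7.23% of all tested genes did not. Its log2 fold change was 0.20 (SE 0.095, edgeR FDR = 0.5). The groups did overlap for its sum with Hmga1b, from which its reads cannot be cleanly told. That sum was 52.7 to 60.4 CPM in controls and 56.55 to 73.5 CPM in deleted cultures. Hmga2, at 0.92, 1.06 and 0.70 CPM in controls and 0.49, 0.48, 1.97 and 0.34 CPM in deleted cultures, differed by -0.25 (SE 0.55, 95% interval -1.43 to 0.92, edgeR FDR = 0.924). Igf2bp1 differed by 0.16 (SE 0.085), Igf2bp2 by -0.17 (SE 0.097), and Igf2bp3, Arid3b and Mycn by -0.082, 0.051 and -0.0093. Trim71 had 2, 2 and 8 reads in controls and 12, 4, 5 and 5 in deleted cultures.

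In a single fit over both tissues, 0.0133% of 15001 genes had a genotype difference that itself differed between tissues at an FDR below 0.05. The 8 members tested were not among them, and 0 of them had an unadjusted p below 0.05 from edgeR, with 0 called by DESeq2 and limma-trend. Their differences between tissues ranged from -0.76 for Trim71 (SE 1.08) to 0.16 for Mycn (SE 0.11).

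Between cortex and neurons the members changed in both directions, and most of those called were lower in the neurons. In controls, 5 of the 9 members tested fell in the neurons, where 27.3% of all tested genes were called lower, and 1 rose, where 24.8% were called higher. Hmga2 changed most, from 18.6, 12.1 and 13.1 CPM to 0.92, 1.06 and 0.70 CPM. Its log2 fold change was -4.02 (SE 0.59, edgeR FDR = 6.72e-05). Lin28b followed, as above, and Igf2bp2 fell by 1.58 (SE 0.16, edgeR FDR = 1.03e-06), from between 81.8 and 111 CPM to between 27.3 and 34.9 CPM. Hmga1 fell by 1.07 (SE 0.15, edgeR FDR = 1.7e-05), and its sum with Hmga1b went from between 93.1 and 131 CPM to between 52.7 and 60.4 CPM. Igf2bp1 fell by 0.59 (SE 0.17, edgeR FDR = 0.00789).

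Mycn went the other way. It rose by 0.35 on the log2 scale (SE 0.10, edgeR FDR = 0.00688), from 127, 127 and 123 CPM to 155, 167 and 159 CPM. The groups did not overlap, as for 8897 of the 15001 genes tested. With libraries scaled by their totals alone, its rise was 0.21 and was not called (edgeR FDR = 0.0749). Igf2bp3, Arid3b and Trim71 were not called, at -0.19 (SE 0.14), -0.26 (SE 0.19) and -1.16 (SE 0.81). The 3 Igf2bp genes thus differed in the size of their values, from -1.58 for Igf2bp2 to -0.19 for Igf2bp3. Those differences between genes were not tested.

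In the Phf6-deleted samples, 6 of the 8 members tested fell, where 31.0% of all tested genes were called lower, and Mycn rose by 0.53 (SE 0.082, edgeR FDR = 2.32e-05), where 27.9% were called higher. Hmga2 fell by 4.12 (SE 0.53, edgeR FDR = 1.19e-05), Igf2bp2 by 1.71 (SE 0.14), Hmga1 by 0.81 (SE 0.13) and Igf2bp1 by 0.61 (SE 0.14). Igf2bp3 and Arid3b fell by 0.29 (SE 0.11, edgeR FDR = 0.0389) and 0.39 (SE 0.16, edgeR FDR = 0.0391). Both calls were lost without Phf6-/Y replicate 1, at -0.16 (edgeR FDR = 0.111) and -0.26 (edgeR FDR = 0.122). Each was also lost without some other libraries. Igf2bp3 lost it without Phf6-/Y replicate 5 or deleted cultures 1, 2 or 4, and Arid3b without Phf6-/Y replicates 4 or 5 or deleted cultures 1 or 2. Trim71, at -1.36 (SE 0.61, edgeR FDR = 0.0655), was called with libraries scaled by their totals (edgeR FDR = 0.0401). It was also called without control cortex 2, Phf6-/Y replicate 5 or deleted culture 1. Trim71 did not pass the filter in the neurons and entered this comparison through its reads in the cortex. The filter thus favoured a call of lower in the neurons, and counts that hold Trim71 are a description.

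Marker sums of several cell types also differed between the tissues. The radial glia and cycling progenitor markers (10 of 10 measured, such as Sox2 and Pax6) summed to 2712 to 2863 CPM in control cortices and to 684 to 987 CPM in control neurons. The intermediate progenitor markers (4 of 4 measured) went from between 684 and 788 CPM to between 312 and 495 CPM. Of these, Insm1 was not called between control tissues, at -0.10 on the log2 scale (SE 0.16, edgeR FDR = 0.62). The endothelial markers (6 of 6) went from between 171 and 200 CPM to between 3.70 and 4.21 CPM, with Cldn5 and Tie1 at 0 in the control neurons. The part of these cells in the members' values was not tested, and in such bulk samples fewer cells of a type and less RNA per cell cannot be told apart. In the Phf6-/Y cortices the radial glia and cycling progenitor markers summed to 2478 to 3169 CPM. The highest sum of all cortices was again that of Phf6-/Y replicate 1, the cortex highest for Hmga2. Its intermediate progenitor sum, at 615 CPM, and its neuron marker sum, at 5648 CPM, were the lowest of all cortices.

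**Figure D4:**
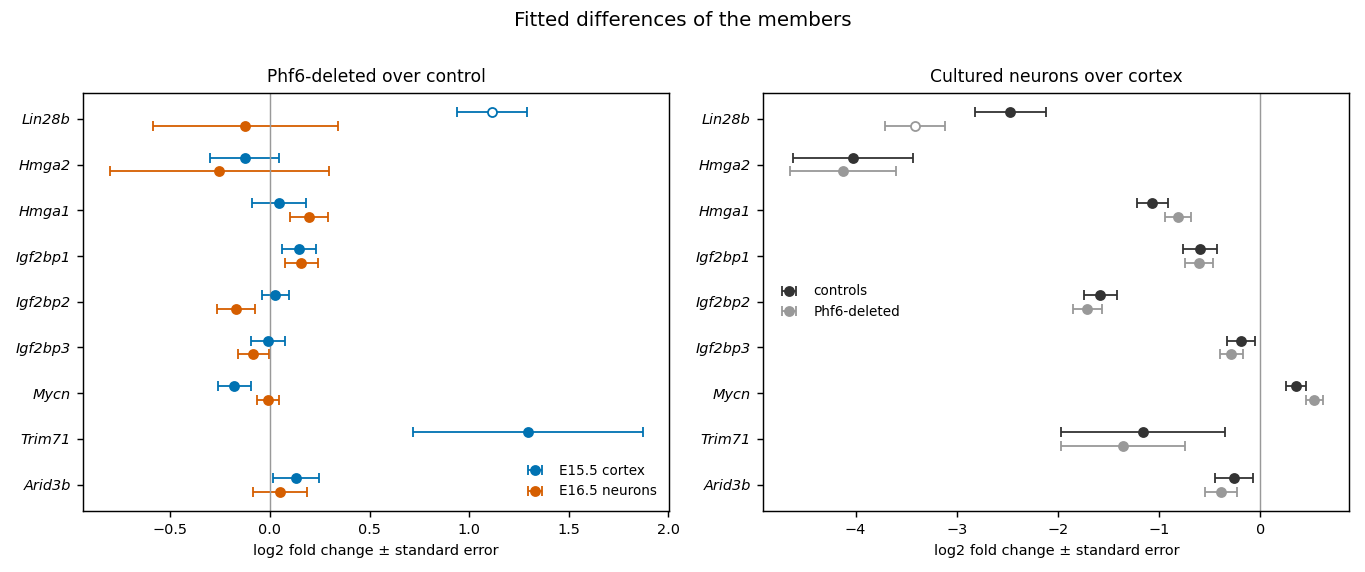
Fitted log2 fold changes with their standard errors for the members that passed the filter, for Phf6-deleted over control samples on the left (blue E15.5 cortex, orange E16.5 neurons) and for cultured neurons over cortex on the right (black controls, grey Phf6-deleted). Open symbols are the Lin28b values that are described with no test. Apart from Lin28b and Trim71 in the cortex, the genotype values lie near 0, whereas Hmga2 and Lin28b lie at -4.02 and -2.47 between tissues in controls.

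Levels were compared between members only per length, as CPM per kilobase (RPKM) of the gene length deposited with the counts. In control cortex Mycn was highest at 48.4 ± 0.93 RPKM (SD, n = 3), followed by Hmga1 at 28.0 ± 6.81 and Igf2bp2 at 24.6 ± 3.78, which overlapped each other. Igf2bp3 followed at 18.7 ± 1.04 RPKM and Igf2bp1 at 9.60, between 8.46 and 10.9, then Arid3b at 3.80 ± 0.47 and Hmga2 at 3.49 ± 0.83, again an overlapping pair. Lin28b stood at 1.06 ± 0.36 RPKM, and Trim71 and Lin28a were lowest at 0.073 ± 0.051 and 0.039 ± 0.025, with overlap. In the Phf6-/Y cortices the order was the same, with Lin28b at 2.12 ± 0.66 RPKM (SD, n = 5) and now overlapping Hmga2 at 3.19 ± 2.07. In control neurons Mycn was at 61.7 ± 2.37 RPKM (SD, n = 3) and Igf2bp3 was next at 16.4 ± 1.24, while Hmga2 at 0.21 ± 0.043 and Lin28b at 0.19 ± 0.050 overlapped near the bottom. In the deleted neurons Mycn was at 63.7 ± 5.51 RPKM (SD, n = 4), and Hmga1 and Igf2bp3 came next and overlapped.

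Genes that make, trim and destroy let-7 formed the next list of 18, which holds the processing enzymes (Drosha, Dicer1), the Argonaute proteins and the factors that act with LIN28 on precursors (Tut4, Tut7, Dis3l2). Of the 18, 0 were called between genotypes in the cortex and 0 in the neurons, where 0.386% and 0.273% of all tested genes were. The unadjusted p from edgeR was below 0.05 for 0 in the cortex and for 2 in the neurons, both lower. Over all genes tested in the neurons, 4.46% were lower at that p. The 2 were Prkra at -0.22 (SE 0.077, edgeR FDR = 0.303) and Ddx5 at -0.18 (SE 0.053, edgeR FDR = 0.22). With no filter on low counts Ddx5 was called in the neurons (edgeR FDR = 0.0145). Between control cortex and control neurons 5 of 18 rose and 2 fell, where 24.8% of all tested genes were called higher and 27.3% lower, with a median log2 fold change of 0.031 against -0.036 over all genes tested. The largest changes were those of Hnrnpa1 (0.48, SE 0.14, edgeR FDR = 0.00865), an RNA-binding protein that affects let-7 processing, Khsrp (-0.44, standard error 0.078), which promotes it, and Ddx5 (0.43, standard error 0.085), a helicase of the Drosha complex.

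The other list held 28 further genes reported or predicted as let-7 targets. Of these, 0 were called between genotypes in the cortex and 0 in the neurons by edgeR, with unadjusted p below 0.05 for 4 higher and 0 lower in the cortex and for 4 higher and 1 lower in the neurons. Over all genes tested, 5.69% were higher and 4.77% lower at that p in the cortex, and 5.87% and 4.46% in the neurons. Their median log2 fold change was 0.076 in the cortex, with 20 of 28 values above 0, against -0.0021 over all genes tested. In the neurons it was 0.073, with 17 of 28 above 0, against 0.00097. The 4 in the cortex were Fign at 0.68 (SE 0.21, edgeR FDR = 0.293), Arid3a at 0.29 (SE 0.13), Ccnd1 at 0.29 (SE 0.081) and Igf1r at 0.19 (SE 0.067). Those in the neurons were Plag1 at 0.93 (SE 0.36), Irs2 at 0.23, Myc at 0.21 and Nras at 0.17, and Nr2e1 at -0.25. DESeq2 called Fign in the cortex (FDR = 0.042). Phf6-/Y replicate 1 was the highest cortex for Fign, at 33.9 CPM, and for Ccnd1, at 179 CPM. Without it the differences were 0.37 for Fign (DESeq2 FDR = 0.752), 0.20 for Ccnd1, 0.42 for Arid3a and 0.20 for Igf1r, and the median over the 28 was 0.057. Between control cortex and control neurons 13 of 28 fell and 8 rose, with a median of -0.23, where 27.3% of all tested genes were called lower and 24.8% higher. The number that rose was thus near the share over all genes. The largest changes were those of Ccnd1, a cyclin of dividing cells (-2.61, SE 0.28, edgeR FDR = 4.13e-06), Fign (-2.49, standard error 0.49) and Nr2e1, a nuclear receptor of neural stem cells (-2.25, standard error 0.21). Ccnd1 went from between 83.5 and 123 CPM to between 11.2 and 20.3 CPM. Both Ccnd1 and Nr2e1 are genes of dividing progenitors, whose markers had lower sums in the neurons, as given above. Their part in these values was not tested.

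Reads counted over the let-7 hairpins are not a measure of mature microRNAs, which were not measured here. Of 15 let-7 hairpin genes and host transcripts, 3 passed the filter in the cortex and 5 in the neurons or over all libraries. Mirlet7b and Mirlet7c-2, the pair on chromosome 15 whose hairpins lack GGAG, were the hairpin rows with most reads. Mirlet7b had 9, 29 and 2 reads in the control cortices and 76, 62 and 63 in the control neurons, a log2 fold change of 2.48 (SE 0.67, edgeR FDR = 0.00501). Mirlet7c-2 had 1, 15 and 0 reads in the control cortices and 53, 30 and 66 in the control neurons, at 3.33 (SE 0.96, edgeR FDR = 0.008). The host transcript Mir100hg rose by 1.31 (SE 0.36, edgeR FDR = 0.00528) and Mir99ahg by 0.88 (SE 0.29, edgeR FDR = 0.0154). In all, 4 of 5 tested rose in controls and 0 fell, where 24.8% of all tested genes were called higher. In the Phf6-deleted samples 3 rose and 0 fell, where 27.9% were. Mirlet7b and Mirlet7c-2 did not pass the filter in the cortex and entered this comparison through their reads in the neurons. For these rows a call of higher in the neurons was thus close to fixed by the filter, and counts that hold them are a description.

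Between genotypes 0 of these rows were called in the cortex or in the neurons by edgeR. In the neurons Mirlet7c-2 had 53, 30 and 66 reads in controls and 24, 31, 4 and 31 in deleted cultures, at -1.18 on the log2 scale (SE 0.42, edgeR FDR = 0.323). Mirlet7b had 47, 63, 43 and 35 reads in the deleted cultures, at -0.34 on the log2 scale (SE 0.30, edgeR FDR = 0.763). All 4 lay below the 3 controls in CPM, the highest only just, at 2.74 CPM against 2.76 CPM in the lowest control. Groups did not overlap for 7.23% of all genes tested in the neurons. In the cortex both were too low to test, with 0 to 13 reads for Mirlet7b in the Phf6-/Y samples. The hairpins of let-7a, let-7f, let-7g and miR-98 had 12 reads or fewer in any group.

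**Figure D5:**
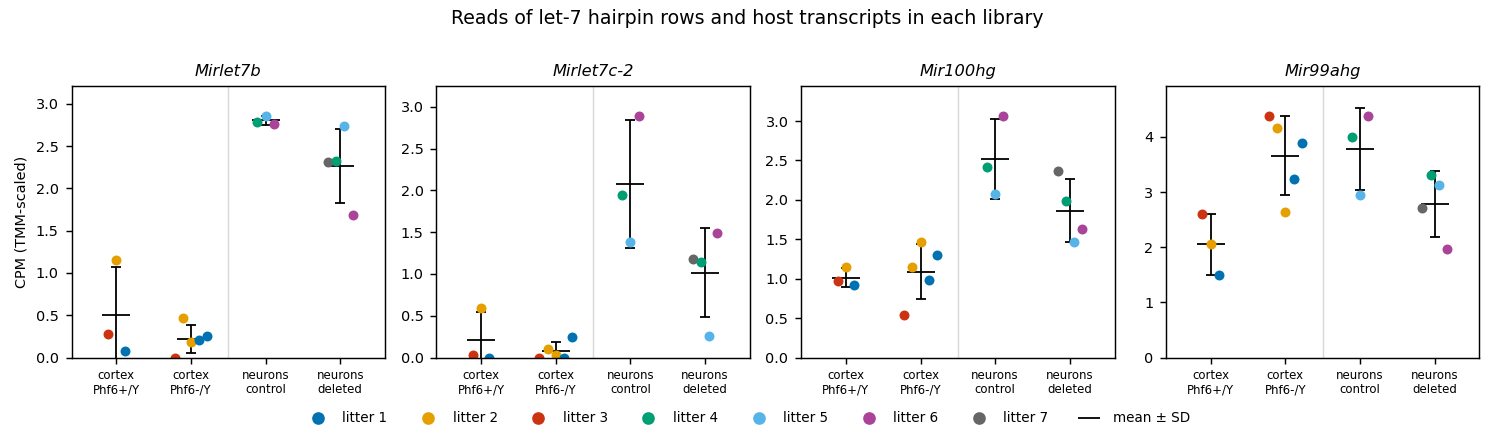
CPM of the hairpin rows Mirlet7b and Mirlet7c-2 and of the host transcripts Mir100hg and Mir99ahg, with 1 point per library coloured by litter, mean ± SD bars, and linear axes that start at 0. Mirlet7b lies at or below 1.15 CPM in every cortex and at or above 1.68 CPM in every culture. Mir99ahg is higher in the 5 Phf6-/Y cortices than in the 3 control cortices, by a narrow gap from 2.60 to 2.63 CPM. In the cortex 5.02% of all tested genes did not overlap.

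The pattern of Lin28b over the 8 cortices was set against that of every other gene tested there, by Pearson's r of log2 CPM. The 5 most alike were Cfap100 (r = 0.97), Parp8 (0.97), Evpl (0.96), Mir99ahg (0.96) and Tubgcp4 (0.95). With 14749 genes compared over 8 libraries that include both genotypes, high values are bound to occur, and they are given as a description with no test. Mir99ahg is the long non-coding transcript annotated at chr16:77329328-77558428, upstream of Mirlet7c-1 (chr16:77599657-77599750, plus strand), and it is listed above among the hosts. It was at 2.60, 2.06 and 1.49 CPM in the control cortices and at 4.37, 4.16, 2.63, 3.23 and 3.89 CPM in the Phf6-/Y cortices, with a log2 difference of 0.90 (SE 0.26, edgeR FDR = 0.212), and 0.97 without Phf6-/Y replicate 1. Mirlet7c-1 itself had 0 reads in the control cortices and 1 in the Phf6-/Y cortices. Among the members, Trim71 was most like Lin28b (r = 0.60), followed by Igf2bp1 (0.59) and Arid3b (0.56), at ranks 1189, 1234 and 1461 of the 14749. Hmga2 had an r of 0.30 and Mycn one of -0.77. Phf6-/Y replicate 1, the library with the diencephalon markers, was the highest of the 8 cortices for Lin28b, Trim71, Igf2bp1, Arid3b and Hmga2, and the lowest for Mycn. Values of r without it were not computed, so its part in them was not tested.

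All tested genes were finally grouped by their number of 8mer or 7mer-m8 matches, as a description. In the cortex the median log2 difference between genotypes was -0.007 for the 12409 genes with 0 matches, 0.024 for 1289 genes with 1, 0.044 for 161 with 2 and 0.043 for 25 with 3 or more. In the neurons the medians were 0.0014, 0.0066, 0.0088 and -0.065. Between control cortex and control neurons, 27.6% of the genes with 0 matches were called lower and 25.1% higher. The shares were 30.5% and 28% with 1 match, and 27.8% and 31.5% with 2. Of the 26 genes with 3 or more, 38.5% were called lower and 19.2% higher. These include 4 members, Lin28b, Hmga2, Igf2bp1 and Trim71, which were chosen for the let-7 axis and of which all but Trim71 were called lower. Lin28b, chosen for its rise in the Phf6-/Y cortices, is also in the cortex genotype median of its class.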

How the data were processed

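RNA was measured by stranded, paired-end sequencing of 15 libraries. The deposited values are raw counts of reads per Entrez gene, which the authors made by aligning to mm10 with Rsubread and counting with featureCounts and its inbuilt RefSeq annotation. The strand setting of the counting is not given in the sources used here. The authors also deposited gene lengths. All 15 per-sample files equalled their column of the series table.

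Of 27179 rows, 1029 named no gene (0.35% to 0.61% of reads). Unmatched identifiers (875), pseudogenes (835), rRNA (35) and predicted genes (1273) were removed, which left 23132 genes named from RefSeq (GRCm38). Genes were filtered with filterByExpr, scaled by TMM and tested with edgeR 4.0.16 (robust quasi-likelihood, Benjamini-Hochberg over all genes), with genotype and litter as terms within each tissue, 4 groups between tissues, and litter with genotype by tissue for the interaction. Standard errors are the log2 fold change over the root of F. Replicate numbers in the labels do not follow litters, so litter served as the block. P-values set a fitted difference against the spread between these samples. That spread is within litters for the genotype and interaction fits, and within groups for the fits between tissues.

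Alternatives were RLE or total-count scaling, no filter, limma 3.58.1, DESeq2 1.42.0, the litter term changed, and each library left out. Leaving out litter 3, and Phf6-/Y replicate 1 for the lists, was chosen after seeing the data. Fits were tested on simulated data. The members and lists were chosen with earlier results of these data known. Named beside the members are the 5 genes most like Lin28b and, of each list, genes called between genotypes and the 3 largest changes between control tissues. Other features named from the lists were chosen after their values were seen.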

Additional observations from a re-analysis of the deposited data

Results flagged for a closer look

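In groups of 4 or 5 libraries, a library was singled out where its gap to the next one took more of the group's range than Dixon's 95% limit allows. Of 20 such groups tested over the 10 members, 4 held one. The nominal rate of about 1 in 20 holds for independent, normally spread values. These groups reuse the same libraries and some rest on few reads, so no excess over chance can be read from the 4. In the Phf6-/Y cortices, replicate 1 was at 28.7 CPM for Hmga2, with the next library at 10.1 CPM, and at 123 CPM for Igf2bp2, with the next at 91.8 CPM. This is the cortex whose diencephalon markers summed to 433 CPM. Among the Phf6-deleted cultures, replicate 3 was at 1.97 CPM for Hmga2, with the next at 0.49 CPM, and at 0.32 CPM for Lin28a, which is 5 reads, with the next at 0.049 CPM. It was the library with the fewest reads, 16858007, and the lowest for Lin28b. The part of these features in the values was not tested.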

How the results depend on the processing

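The counts of members called between genotypes (0 in the cortex, 0 in the neurons, 0 for the interaction) were 0 under all alternatives, including the fits without the replicate block (litter term left out) and those leaving out any 1 library. Between tissues in controls, 6 members were called, 5 to 7 under the alternatives, 6 in each fit with a library left out, and 6 with litter as a random replicate block. The 7 were called with no filter on low counts, where Lin28a was added. In the Phf6-deleted samples 7 were called, 5 to 8 under the alternatives and 5 to 8 with a library left out. The counts of 8 hold Trim71, which passed the filter through its cortex reads.

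Signs turned only among uncalled values. Without the litter block the log2 differences became -0.0021 for Hmga1 and -0.027 for Igf2bp2 in the cortex, 0.045 for Lin28b, -0.033 for Arid3b and 0.047 for Mycn in the neurons, and -0.013 for Igf2bp1 in the interaction. With library totals Igf2bp1 in the interaction was -0.0037. Without litter 3, Igf2bp2 in the cortex was -0.017, and Hmga2, Igf2bp3 and Arid3b in the interaction were 0.22, 0.046 and 0.0050.

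In the fits that leave out a library, the log2 differences that turned sign ranged in the cortex from -0.20 to 0.19 for Hmga1, -0.42 to 0.062 for Hmga2, -0.013 to 0.069 for Igf2bp2 and -0.13 to 0.10 for Igf2bp3. In the neurons they ranged from -0.40 to 0.047 for Lin28b, -0.99 to 0.11 for Hmga2, -0.14 to 0.010 for Igf2bp3 and -0.031 to 0.0086 for Mycn. In the interaction they ranged from -0.85 to 0.34 for Hmga2, -0.092 to 0.10 for Igf2bp1, -0.18 to 0.046 for Igf2bp3, -1.62 to 0.062 for Trim71 and -0.16 to 0.0050 for Arid3b, and the described Lin28b value was -0.94 without the litter block. Among the lists, DESeq2 called 1 further target (Fign) in the cortex, the fit with no filter called 1 processing gene (Ddx5) in the neurons, and leaving out litter 3 took the processing genes called between control tissues from 7 to 4. The cause was not tested in any of these. Depth limited Lin28a, Trim71 and the let-7 hairpin rows, which had few reads.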
